A study of Homo sapiens with 3 samples.

Results

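GC-rich clusters of MATR3 PAR-CLIP reads inside introns are described here. They were taken by sequence alone from 3 tables of clusters: intron clusters of at least 20 nt and under 150 nt whose sequence held at least 65% G + C and whose share of C + T lay between 35% and 75%, with both ends of that band left out. The rule found 4304, 5387 and 3922 such clusters in replicates 1, 2 and 3, which is 13613 of 278842 intron clusters of that length and of 388807 clusters in all. For comparison, intron clusters of the same lengths with under 40% G + C are called AT-rich, and there were 27667, 24219 and 25652 of them.

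The study came from work on loss of MATR3 and the cGAS-STING pathway. The libraries are a single group of 3 biological replicates of HEK293 cells with wild-type genotype and no treatment, precipitated with a MATR3 antibody; HEK293 is a long-established line of human embryonic kidney cells. PAR-CLIP feeds cells a photoreactive uridine analog, crosslinks RNA to protein with UV light and reads the crosslinked uridines as T-to-C changes. No control library was used here and the RNA-seq that the design text names is not analysed here, so each comparison is between classes of clusters within the same replicate.

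Matrin 3 is a nuclear RNA- and DNA-binding protein with a pair of RNA recognition motifs and a pair of zinc fingers. It binds long introns, prefers pyrimidine-rich RNA and represses the splicing of nearby exons, in part with the polypyrimidine tract binding protein PTBP1. GC-rich intron sequence is common in short genes, on gene-dense chromosomes and next to promoters, where CpG islands, stretches that keep their CG dinucleotides, often run into the first intron.

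The clusters that recurred best show what these sequences look like. GC-rich clusters of all 3 replicates overlapped at 40 places, and the 10 places with the most reads are named here in order: PRDX6, CYHR1, B4GALT5, ATAD3B, PFN1, RPN2, CAMK2G, ZFR, WDR1 and FKBP3. For 7 of them the sequence of the cluster with the most reads is printed along the RNA strand, 5′ to 3′, with every run of 4 or more C or T in capitals. The capitals show how much pyrimidine a cluster can hold while C + T stays within the band.
PRDX6: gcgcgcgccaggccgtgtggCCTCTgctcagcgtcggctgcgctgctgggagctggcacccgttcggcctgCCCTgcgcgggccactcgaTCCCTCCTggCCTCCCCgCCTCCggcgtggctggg
B4GALT5: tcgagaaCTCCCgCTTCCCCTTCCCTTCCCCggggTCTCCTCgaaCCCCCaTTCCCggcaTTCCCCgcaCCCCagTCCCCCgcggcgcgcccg
PFN1: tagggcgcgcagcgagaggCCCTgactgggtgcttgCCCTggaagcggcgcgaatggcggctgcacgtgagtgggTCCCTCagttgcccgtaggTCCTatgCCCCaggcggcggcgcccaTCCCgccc
RPN2: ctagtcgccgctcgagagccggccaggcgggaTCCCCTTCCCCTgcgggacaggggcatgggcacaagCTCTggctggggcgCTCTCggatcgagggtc
CAMK2G: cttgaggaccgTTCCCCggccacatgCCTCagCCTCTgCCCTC
ZFR: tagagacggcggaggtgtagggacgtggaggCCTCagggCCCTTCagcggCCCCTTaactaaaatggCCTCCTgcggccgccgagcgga
FKBP3: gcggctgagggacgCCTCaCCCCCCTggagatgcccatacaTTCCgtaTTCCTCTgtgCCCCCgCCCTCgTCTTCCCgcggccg

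The sequences differ in how their pyrimidines are laid out. The B4GALT5 cluster (chr20:49713145-49713237, hg38, minus strand) had 71.0% C + T, and its longest unbroken run of C and T was 18 nt. In the RPN2 cluster (chr20:37179422-37179520, hg38, plus strand) C + T was 48.5% and the longest run was 12 nt. The PFN1 cluster (chr17:4948054-4948181, hg38, minus strand), at 50% C + T, had no run above 6 nt.

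Most of these places lie in the first intron of an annotated transcript, close to a transcription start. The PRDX6 cluster (chr1:173477630-173477754, hg38, plus strand) is centred 357 nt from an annotated transcription start and 199 nt from the 5′ splice site of the first intron. PRDX6 encodes a peroxiredoxin, and its place held 48, 43 and 32 reads in replicates 1, 2 and 3. B4GALT5 encodes a galactosyltransferase of glycolipid synthesis, and its place, 687 nt from a start, held 57, 14 and 36 reads, so replicate 2 was lowest there. At ATAD3B, which encodes a mitochondrial ATPase, the counts were 22, 44 and 20, so replicate 2 was highest. ATAD3B has the near-identical neighbour ATAD3A, so the origin of its reads is uncertain.

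PFN1 encodes profilin, which binds actin monomers, and its place 413 nt from a start held 13, 38 and 29 reads. RPN2 encodes a subunit of the oligosaccharyltransferase of the endoplasmic reticulum, and its place 141 nt from a start held 15, 29 and 20 reads. The ZFR place (chr5:32443916-32444004, hg38, minus strand), in a gene for a zinc finger RNA-binding protein, held 12, 30 and 21 reads at 536 nt from a start. The FKBP3 place (the printed cluster is chr14:45134234-45134317, hg38, minus strand), in a gene for a prolyl isomerase, held 14, 21 and 25 reads at 206 nt from a start. Replicate 2 was thus not the highest at all of these places, although it had the most GC-rich clusters.

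Among the 10, only the CAMK2G place (the printed cluster is chr10:73851372-73851414, hg38, minus strand) lies in a later intron. Its centre is 1423 nt from the nearest annotated start. That gene encodes a calcium/calmodulin-dependent kinase, and the counts of 21, 18 and 20 reads were the most even of the 10. The WDR1 place overlaps an exon of another annotated transcript, and its sequence is not printed. WDR1 promotes actin disassembly, and its place held 26, 13 and 22 reads. At CYHR1 the replicates held 36, 26 and 35 reads. The CYHR1 place lay 1280 nt and the ATAD3B place 1153 nt from a start, so 7 of the 10 places were within 1000 nt. Over the 10 places the T-to-C share of reads ranged from 61.5% to 100%, and the number of distinct reads from 3 to 20.

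The 40 places fell in 39 genes. Of these places, 25 (62.5%) lay within 1000 nt of an annotated transcription start on the same strand, 37 (92.5%) in a first intron of any annotated transcript and 4 over an annotated exon. Over all members, 39.8% ± 0.771 lay that near a start and 68.6% ± 1.22 in such a first intron (SD, n = 3). A CpG island-like window surrounded 24 of the 40 places and 23.2% ± 1.05 of all members. Here that means a 500 nt window around the cluster centre with at least 50% G + C and a ratio of observed to expected CG of at least 0.6. Their shared position is a description, because places with more reads are found in all replicates more easily.

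Few GC-rich clusters recurred as GC-rich clusters. Of the members, 87.7% ± 1.12 (SD, n = 3) had a GC-rich partner in no other replicate, 11.3% ± 0.981 in 1 other and 1.03% ± 0.142 in both others. The median read number was higher in the same order, from 8.67 ± 0.577 reads through 11 to 14.7 ± 0.577 reads, and so was the mean length, from 44.7 ± 2.12 nt through 54.9 ± 5.69 nt to 67.3 ± 2.85 nt. The share near a transcription start was 38.0% ± 0.882, 52.0% ± 0.772 and 64.5% ± 1.98. Longer clusters overlap others more easily, and the part of length and reads in this order was not tested.

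The whole tables held 133088, 131679 and 124040 clusters with 1649124, 1506682 and 1532602 reads. Every cluster in them had at least 4 reads, 2 conversion locations and 20 nt, so weaker sites were not seen. The total depth of the libraries is unknown here, since only reads inside clusters were counted. Replicate 2 stood apart in composition: GC-rich clusters were 4.46%, 5.64% and 4.35% of the intron clusters of any length in replicates 1, 2 and 3, and AT-rich clusters 28.7%, 25.3% and 28.4%. The GC-rich share was therefore highest, and the AT-rich share lowest, in replicate 2.

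Members held 49654, 55731 and 43930 reads, which was 4.85% ± 0.762 of the reads in intron clusters (SD, n = 3). That is close to their 4.81% ± 0.713 share of intron clusters. They fell in 2204, 2550 and 2130 genes. The limit on C + T left out a further 508, 650 and 454 clusters with at least 65% G + C.

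**Figure D1:**
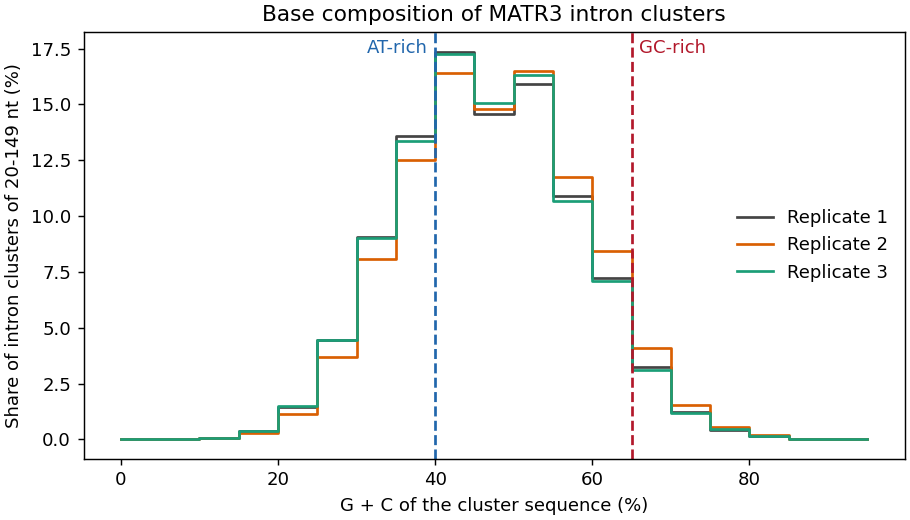
Share of intron clusters of the lengths in the rule (y axis, percent) by G + C of the cluster sequence (x axis, percent, in steps of 5) in each replicate; dashed lines mark 40% and 65%. The curves are highest between 40% and 55%, GC-rich clusters are the upper tail, and replicate 2 lies to the right of the others.

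The plot of cluster composition shows no peak of its own above 65% G + C. Just inside the threshold, at 65% to 66% G + C, there were 869 ± 125 clusters per replicate (SD, n = 3), and just outside, at 64% to 65%, there were 886 ± 105. Conversion per T position was 15.5% ± 0.309 inside and 15.3% ± 0.601 outside, and the share near a transcription start was 27.4% ± 0.593 inside and 28.3% ± 2.97 outside. Values moved gradually along the whole range of composition. The share near a transcription start was 9.18% ± 0.349 under 30% G + C, 18.2% ± 1.04 from 50% to 60%, 31.3% ± 0.70 from 65% to 70% and 72.3% ± 0.941 at 75% or more.

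The bases of the members show what the rule selected. Members were 35.4% ± 0.382 C, 34.3% ± 0.324 G, 18.6% ± 0.228 T and 11.8% ± 0.272 A (SD, n = 3), so a cluster held 8.57 ± 0.347 T on average against 17.6 ± 0.693 in AT-rich clusters. Median lengths were 39 ± 1.73 nt and 37.0 ± 1.73 nt. Windows of the same length placed 200 nt to each side were still rich in G + C, at 56.8% ± 0.221 for members against 39.5% ± 0.199 for AT-rich clusters. Relative to their own flanks, members had 6.91 ± 0.136 points more C, 5.34 ± 0.119 points more G, and differences of -5.52 ± 0.159 points in T and -6.73 ± 0.138 points in A.

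**Figure D2:**
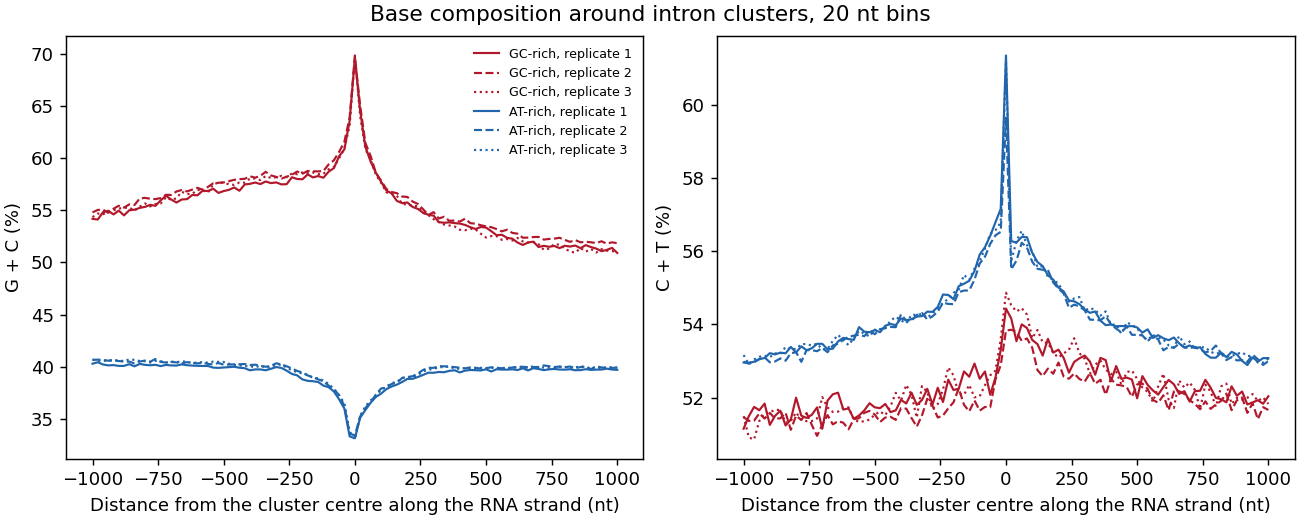
G + C (left) and C + T (right), both in percent, in 20 nt bins by distance in nt from the cluster centre along the RNA strand, for GC-rich and AT-rich clusters in each replicate; the y axes do not start at 0. G + C of GC-rich clusters peaks at the centre on a broad GC-rich plateau that is higher upstream, while the sharp C + T peak belongs to AT-rich clusters.

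The surrounding plateau was wide and lopsided. In the profile of composition around cluster centres, G + C of members in replicate 1 was 69.6% in the central bin, 58.7% at 100 nt upstream and 57.7% at 100 nt downstream. At 1000 nt it was 54.2% upstream and 50.9% downstream. C + T of the same clusters was 54.4% in the centre and 51.1% at 1000 nt upstream. AT-rich clusters in replicate 1 went from 53.0% C + T at 1000 nt upstream to 61.3% in the centre.

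GC-rich sequence was about as frequent in MATR3 intron clusters as beside them, within the spread between replicates. Of intron clusters, 4.51%, 5.72% and 4.39% were GC-rich, against 4.48%, 5.20% and 4.74% of the windows of equal length 200 nt away. The windows were placed by distance alone and were not limited to introns, so some may lie in exons or outside the gene. The mean difference was 0.0719 ± 0.437 points (SD, n = 3), positive in replicates 1 and 2 and negative in replicate 3 (exact sign-flip test, two-sided, p = 0.75). It was -0.155 points without replicate 2, -0.167 points with windows 500 nt away and -0.159 points at 1000 nt. Upstream windows were GC-rich more often, at 5.46% ± 0.434, than downstream windows, at 4.15% ± 0.296. The same count for AT-rich sequence gave 27.8% ± 1.81 of clusters and 39.3% ± 1.43 of windows, a difference of -11.5 ± 0.576 points, lower among clusters in 3 of 3 replicates (exact sign-flip p = 0.25).

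With 3 replicates a two-sided exact sign-flip test cannot go below p = 0.25, so no difference between the classes can pass a threshold of 0.05. Of 15 differences tested, 13 kept 1 direction in all 3 replicates and reached that smallest exact p of 0.25, which is 0.288 after Benjamini-Hochberg adjustment over the 15. Some of the 13 are tied to the rule through composition or the number of T. These are flank G + C, the share on GC-rich chromosomes, conversion per T position and conversion locations per T. Their direction is a description. The other 2 of the 15 were the number of reads per cluster and the reads per distinct read, both with an exact p = 1. Sizes and spreads are therefore given for each, and a difference is set against its SD over replicates.

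Short pyrimidine words that mark AT-rich clusters were scarce in the members. At least 1 of TCTT, CTTC and TTCT, searched on the RNA strand and allowed to overlap, stood in 30.3% ± 1.04 of GC-rich clusters and 39% ± 1.32 of their flanking windows (SD, n = 3). The same words stood in 70.1% ± 0.991 of AT-rich clusters and 49.6% ± 1.36 of theirs. A run of 8 C or T was in 22.7% ± 0.537 of GC-rich clusters and 23% ± 0.501 of flanks, but in 38.5% ± 1.80 of AT-rich clusters and 22.7% ± 0.780 of flanks. Long pyrimidine runs were thus about as frequent in GC-rich clusters as beside them. The rule limits C + T, and through G + C also T, in members. Flanks and AT-rich clusters have no C + T band, so these shares are descriptions. A run of 8 A or G was less frequent in members than beside them, at 10.8% ± 1.26 against 14.5% ± 0.975.

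Since base composition chose the members, their words are descriptions and were not tested. CG was in 83.8% ± 1.62 of members and 64.9% ± 1.27 of flanks. A run of 4 C was in 42.5% ± 0.759 of members and 24.5% ± 0.342 of flanks, and a run of 4 G in 41.8% ± 1.48 and 24.9% ± 1.64. The layout of 4 runs of 3 G with 1 to 7 nt between them, which can fold as a G-quadruplex, was in 1.90% ± 0.289 of members and 1.26% ± 0.210 of flanks.

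Among all 5-letter words the most frequent was CTGGG, in 29.5% ± 1.28 of members, and then CCTGG, in 27.1% ± 1.14 (SD, n = 3). The largest log2 ratio of members to flanks was 1.07 ± 0.06 for TGCCC, which was in 20.2% ± 0.580 of members, on counts with a pseudocount of 1 cluster. Of the 10 words with the largest ratios, 5 held CG and 0 were made of C and T alone, and 6 of the 10 were also among the leading 10 with flanks 500 nt away.

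The words of C and T alone split by their T. CCCCC had a log2 ratio of 0.84 ± 0.04 and CCTCC of 0.63 ± 0.08, while CTTCC and CTCTC both had 0.31. TTTCC had -0.96 ± 0.04 and TCTTC -0.67 ± 0.24. ATCTT was in 0.790% ± 0.158 of members, with a log2 ratio of -1.87 ± 0.34, and in 15.6% ± 0.386 of AT-rich clusters, with 1.02 ± 0.06 against their own flanks. Among the 657 words held by at least 1% of members, the median log2 ratio was -0.47 for the 23 words with no C or T and 0.21 for the 31 made only of them.

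GC-rich clusters lay closer to transcription starts than AT-rich clusters. The share within 1000 nt of a transcription start was 39.4%, 39.3% and 40.7% for GC-rich and 9.51%, 10.3% and 10.7% for AT-rich clusters in replicates 1, 2 and 3, with no overlap. The difference was 29.6 ± 0.514 points (SD, n = 3; exact sign-flip p = 0.25). The median distance to the nearest start was 1765 ± 132 nt against 6309 ± 308 nt. Against intron clusters with 40% to 65% G + C the difference was 23.2 points, from 39.8% and 16.6%.

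First introns, counted as the first intron of any annotated transcript, held 67.3%, 69.0% and 69.6% of GC-rich clusters and 54.3%, 55.5% and 53.9% of AT-rich clusters, a difference of 14.1 ± 1.4 points (n = 3; exact sign-flip p = 0.25). Most of it came with the clusters near starts: without clusters within 1000 nt of one, the shares were 56.3% and 52.7%, and the difference 3.59 ± 1.42 points. The level depends on the transcripts counted. With only the longest transcript of each gene, first introns held 45.6% of GC-rich and 29.0% of AT-rich clusters, 16.7 ± 0.818 points apart. Within 200 nt of a splice site lay 23.6%, 23.1% and 24% of GC-rich clusters, and 6.03%, 6.19% and 6.62% of AT-rich clusters, 17.3 ± 0.329 points apart (n = 3; exact sign-flip p = 0.25). Away from starts the latter difference fell to 4.66 points.

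The excess near splice sites was larger on the 5′ side. Within 200 nt of a 5′ splice site there were 19.8% ± 0.758 of GC-rich and 4.28% ± 0.163 of AT-rich clusters, and within 200 nt of a 3′ splice site 9.32% ± 0.467 and 4.09% ± 0.197. Of GC-rich clusters, 12.5% ± 0.316 overlapped an exon of some annotated transcript, against 4.68% ± 0.301 of AT-rich clusters, although the authors' tables list both as intron. The share that overlapped a gene on the opposite strand was 7.45% ± 0.271 against 5.94% ± 0.0799.

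**Figure D3:**
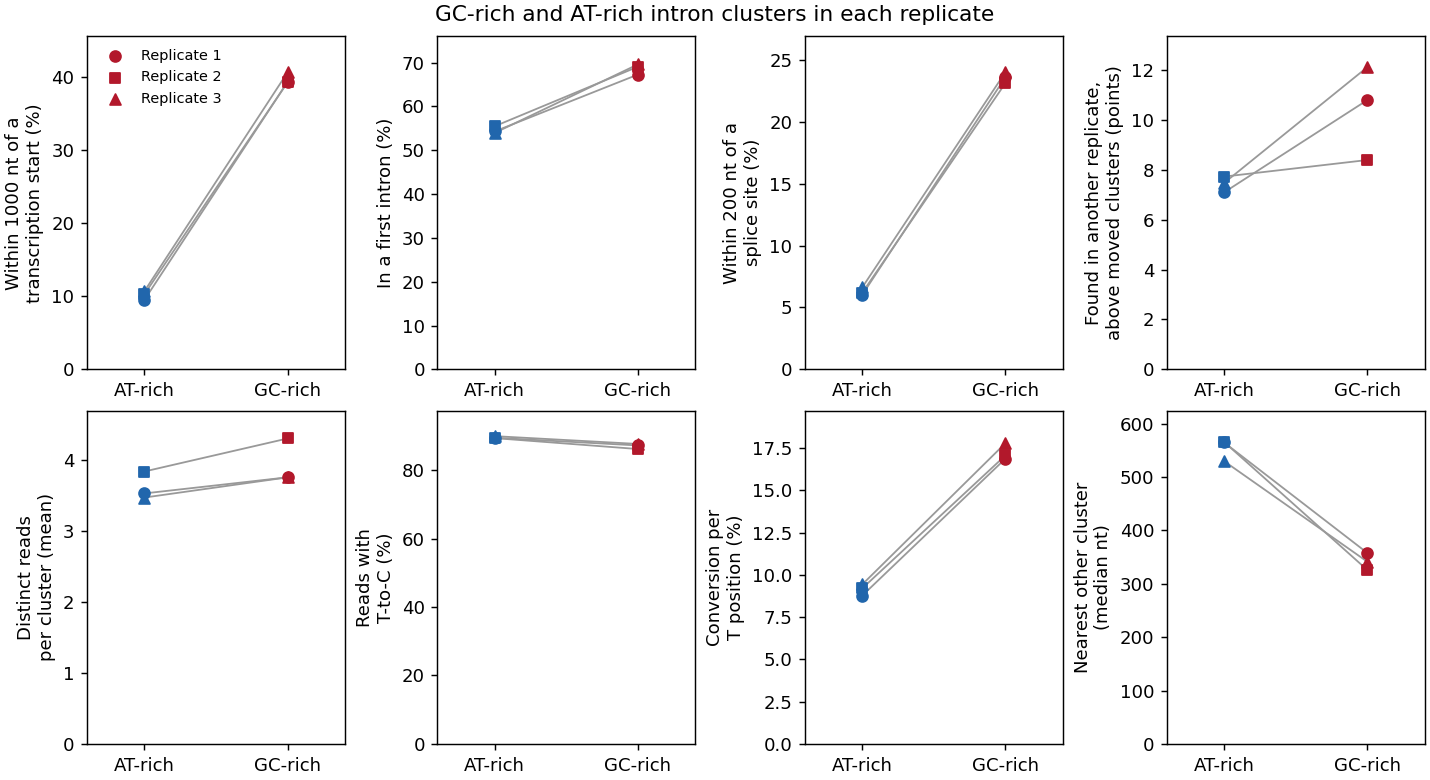
Values of position, reads and conversion (y axes with units, all starting at 0) for AT-rich and GC-rich intron clusters; each point is a replicate and grey lines join the classes of a replicate. Position near starts, first introns and splice sites is higher for GC-rich clusters in every replicate, and distinct reads and T-to-C differ by little.

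Host introns and genes were shorter. The median host intron of GC-rich clusters was 6983, 7420 and 6504 nt long, and that of AT-rich clusters 11983, 11271 and 10692 nt, with no overlap (difference -4346 ± 590 nt, n = 3; exact sign-flip p = 0.25). Median host genes were 55592 ± 1351 nt and 100179 ± 3267 nt long. The median G + C of the host gene body was 51.4% ± 0.211 against 39.7% ± 0.106.

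Members were crowded. The nearest other cluster on the same strand was at a median of 358, 326 and 342 nt for GC-rich and 565, 566 and 530 nt for AT-rich clusters, a difference of -212 ± 26.1 nt (n = 3; exact sign-flip p = 0.25). It was -107 nt among clusters with at least 10 reads, -115 nt with at least 3 conversion locations, -111 nt with at least 3 distinct reads and -407 nt among clusters with 5 to 10 T. The sign was the same in these, and the size was not.

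Median read number was the same in both classes. It was 9, 8 and 9 reads in replicates 1, 2 and 3 in GC-rich and in AT-rich clusters (exact sign-flip p = 1). Distinct reads averaged 3.75, 4.30 and 3.75 in GC-rich and 3.52, 3.83 and 3.47 in AT-rich clusters, higher in each replicate by 0.325 ± 0.124 (n = 3; exact sign-flip p = 0.25). The sign turned in 2 alternatives: the difference was -0.0271 ± 0.131 without clusters near transcription starts and -0.175 ± 0.0358 against clusters of 40% to 65% G + C. Reads per distinct read, which rise with copies of the same molecule, were 2.82 ± 0.363 and 2.83 ± 0.329 (exact sign-flip p = 1).

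The crosslinking signature was present in both classes. Reads with T-to-C made up 87.2%, 86.1% and 87.6% of reads in GC-rich and 89.4%, 89.3% and 89.9% in AT-rich clusters, lower by a difference of -2.57 ± 0.538 points (n = 3; exact sign-flip p = 0.25). The difference was -5.18 points between clusters with 5 to 10 T, -1.43 points away from transcription starts, -0.961 points against clusters of 40% to 65% G + C, and 0 when medians over clusters were compared. Members thus had a slightly lower share of converted reads, by a size that depends on which clusters are compared. The rule sets the number of T, which bears on this share too, and its part was not tested.

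Per T position the order was the other way. Conversion events made up 16.9%, 17.1% and 17.8% of T positions read in GC-rich clusters and 8.77%, 9.20% and 9.43% in AT-rich clusters, 8.11 ± 0.245 points apart (n = 3; exact sign-flip p = 0.25). The rule sets the number of T, and each deposited cluster needed 2 conversion locations, so fewer T can raise this rate. Between clusters with 5 to 10 T the rates were 18.1% and 15.6%, and the difference 2.47 ± 0.316 points. Conversion locations were 34.0% ± 1.18 of T letters in members against 17.9% ± 0.652, and 34.1% against 24.9% at 5 to 10 T. With exactly 2 conversion locations, 57.4% ± 5.39 of members and 53.9% ± 4.66 of AT-rich clusters sat at the minimum of the tables.

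Members were found again in another replicate somewhat more often than AT-rich clusters. A cluster of any composition overlapped by at least 1 nt in 24.6%, 19.6% and 25.6% of members, and in 13.8%, 11.2% and 13.5% of members moved by 1000 nt. The excess was 10.8, 8.39 and 12.1 points for GC-rich and 7.09, 7.73 and 7.47 points for AT-rich clusters, 3.0 ± 2.08 points apart (n = 3; exact sign-flip p = 0.25), with the smallest difference, 0.665 points, in replicate 2. A move of 1000 nt can carry a cluster near a transcription start out of its transcript, which can lower the moved share. Away from transcription starts the difference was -0.101 ± 2.01 points, and against clusters of 40% to 65% G + C it was -1.43 ± 1.18 points. At 5 to 10 T it was 6.67 ± 2.51 points. Counted with partners of the same class only, 12.7%, 11.1% and 13.2% of GC-rich clusters had one, and 1.96%, 1.79% and 2.04% of moved clusters did. For AT-rich clusters these shares were 11%, 11.8% and 11.4%, and 3.23%, 3.50% and 3.43% of moved clusters, so in replicate 2 the AT-rich share was the higher.

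The members split into 2 kinds by the sequence around them. A CpG island-like window, as defined for the recurrent places, surrounded 1051 ± 180 clusters per replicate, or 23.2% ± 1.05 of members, and 0.165% ± 0.0554 of AT-rich clusters (SD, n = 3). Of those members 88.6% ± 1.03 lay within 1000 nt of a transcription start, 94.6% ± 0.126 in a first intron and 49.6% ± 1.47 within 200 nt of a splice site. The remaining 3487 ± 587 had 25.1% ± 0.502, 60.8% ± 1.11 and 15.7% ± 0.507. The remaining members still lay near starts more often than AT-rich clusters, at 25.1% against 10.2% ± 0.603.

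The kinds also differed in their read values, which were not tested. Members in CpG island-like windows had 4.85 ± 0.319 distinct reads against 3.65 ± 0.322 in the rest, and 84.3% ± 0.601 against 88.0% ± 0.864 of their reads carried T-to-C. Their excess of clusters found again was 18.1 ± 3.48 points against 8.13 ± 1.38 points. CG stood in 99.4% ± 0.309 of the first kind and 79.1% ± 2.09 of the other. The first kind was less concentrated on chromosomes 16, 17, 19 and 22, with 22.9% ± 0.928 there against 33.0% ± 1.62.

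GC-rich clusters lay on GC-rich chromosomes more often than AT-rich clusters did. Chromosomes 16, 17, 19 and 22, which are rich in G + C and in genes, held 29.6%, 31.6% and 30.8% of GC-rich clusters and 9.41%, 9.95% and 9.96% of AT-rich clusters (difference 20.9 ± 0.698 points, n = 3; exact sign-flip p = 0.25). The GC-rich share of intron clusters was highest on chromosome 19, at 12.2%, 14.7% and 12.5%, and above that of every other chromosome in each replicate. Chromosome 21 (9.58% ± 0.967) and chromosome 16 (9.07% ± 1.25) did not differ beyond their spread. At the low end, chromosome 6 had 2.65% ± 0.387, chromosome 15 had 3.13% ± 0.839 and chromosome 18 had 3.17% ± 0.319.

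**Figure D4:**
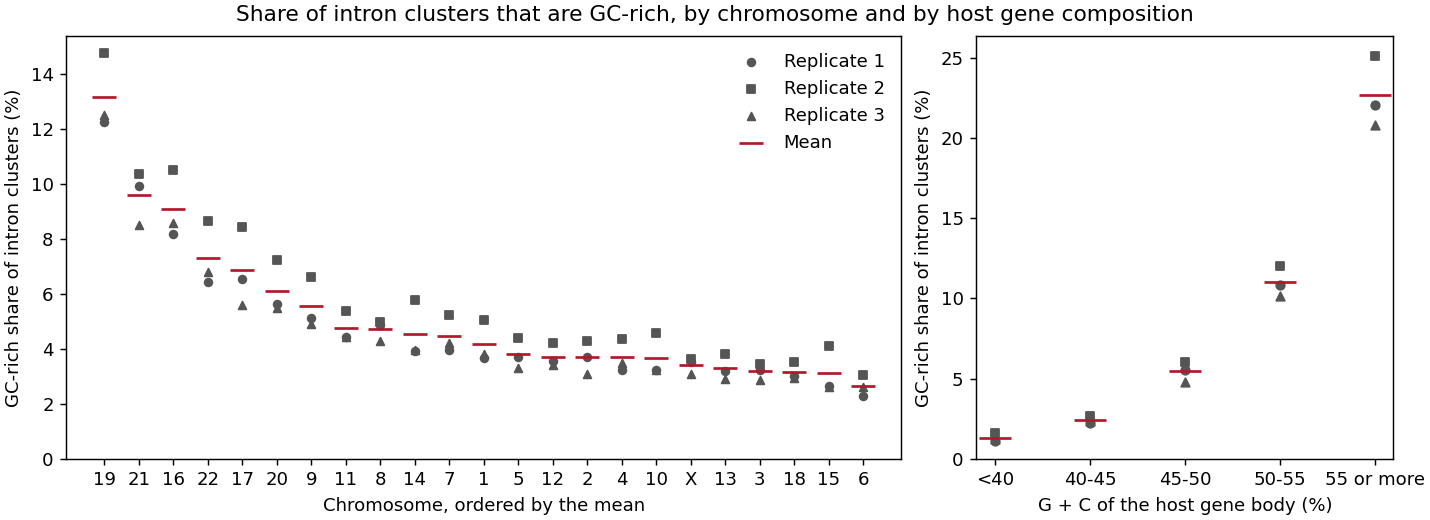
GC-rich share of intron clusters (y axes, percent) by chromosome, ordered by the mean, and by G + C of the host gene body (x axis, percent); points are replicates and red bars their means. Chromosome 19 leads in each replicate, and the share goes from 1.31% to 22.7% across gene bodies.

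Composition of the host gene gave the same order. In gene bodies under 40% G + C, 1.31% ± 0.259 of intron clusters were GC-rich. The share was 2.41% ± 0.220 from 40% to 45%, 5.45% ± 0.623 from 45% to 50%, 11% ± 0.950 from 50% to 55% and 22.7% ± 2.23 at 55% or more. Clusters are part of the gene bodies they were set against, so this order is a description.

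In all, 4131 genes had a GC-rich cluster in any replicate, which is 39.8% of the 10392 genes with an intron cluster. A GC-rich cluster was in 845 genes in all 3 replicates, in 1063 genes in 2 and in 2223 genes in 1. The 20 genes with the largest geometric mean number held 7.67% ± 0.25 of members, so the class was spread over many hosts. All 20 had gene bodies of at least 50% G + C, from 51.2% in ANKRD11 to 65% in CAPN15, and 7 of them lie on chromosomes 16, 17, 19 and 22.

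Long genes led the list. TBCD, a tubulin folding cofactor on chromosome 17, had 40, 46 and 36 GC-rich clusters, which was 18.9% ± 2.0 of its intron clusters (SD, n = 3). ANKRD11, a chromatin regulator on chromosome 16, had 32, 32 and 34, and 96.9% of them lay in a first intron. VAV2, a guanine nucleotide exchange factor, had 27, 43 and 20, and MAD1L1, a spindle checkpoint protein, had 27, 33 and 19. In both, replicate 2 was highest and replicate 3 lowest.

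SKI, a repressor of TGF-beta signalling, had 17, 32 and 20 GC-rich clusters, all in a first intron. PIEZO1, a mechanically gated ion channel, had 16, 22 and 16, which was 39.3% ± 2.65 of its intron clusters. DOT1L, a histone methyltransferase, had 13, 19 and 21, of which only 17% lay in a first intron. CTBP1, a transcriptional corepressor, had 8, 17 and 12, and 51.7% ± 9.31 of its intron clusters were GC-rich, the highest share of the 20 genes. CMIP had the lowest, 12.0% ± 3.55, with 10, 18 and 6.

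Transporters and factors of RNA and ribosome biology were also among the 20. SLC7A5, a transporter of large neutral amino acids, had 12, 10 and 18 GC-rich clusters. SLC6A9, a glycine transporter, had 8, 14 and 11, and SLC19A1, the reduced folate carrier that also takes up cyclic dinucleotides such as cGAMP, had 10, 13 and 9. BOP1, a factor of ribosome assembly, had 16, 11 and 9. ZC3H3, a zinc finger protein of mRNA export, had 12, 9 and 11. FAM207A, listed as SLX9 in GENCODE, had 16, 18 and 14, or 43.3 ± 5.41 per 100 kb of gene.

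KIF1A, a kinesin of axonal transport, had 14, 16 and 15 GC-rich clusters. LPCAT1, a lysophospholipid acyltransferase, had 12, 14 and 10. GAK, a kinase of clathrin uncoating, had 17, 7 and 11, with replicate 2 lowest. CAPN15, of the calpain protease family, had 6, 17 and 13, and CCDC85C had 11, 14 and 7.

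**Figure D5:**
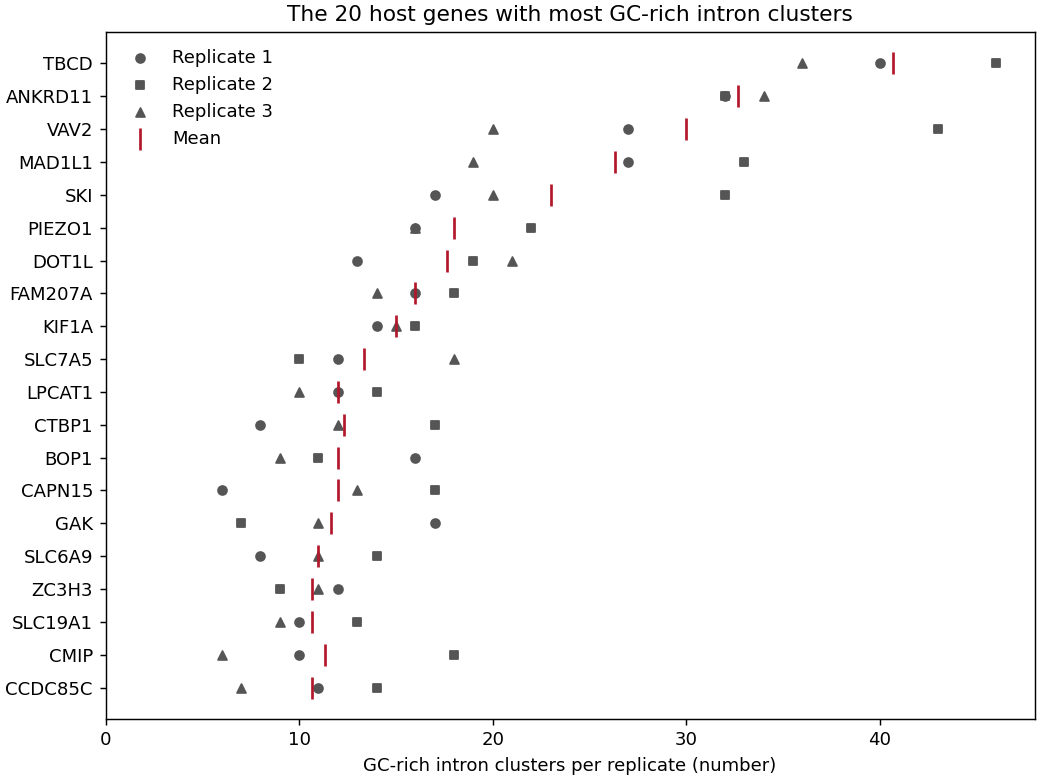
Number of GC-rich intron clusters per replicate (x axis) in the 20 host genes with the largest geometric mean; points are replicates and red bars their means. TBCD and ANKRD11 lead, and replicate 2 is the highest point in most genes.

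In these genes few places held GC-rich clusters of different replicates. Overlapping GC-rich clusters were joined into 938 places in the 20 genes, of which 93 (9.91%) held clusters of 2 or 3 replicates and 7 held clusters of all 3. In TBCD there were 109 places, 11 of them in 2 or 3 replicates, and in PIEZO1 53 places with 1 such place. Low recurrence was not particular to the members. Counted by cluster, 12.7%, 11.1% and 13.2% of all members overlapped one of their class in another replicate. A share of clusters is another measure than a share of joined places, so the 20 genes cannot be set against all members here. The shares for AT-rich clusters were 11%, 11.8% and 11.4%.

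Genes of the pathway named in the study's title were looked up. A list of 22 genes of cGAS-STING signalling, nucleic acid metabolism and the nuclear envelope had 12 genes with an intron cluster and 6 with a GC-rich cluster, and 0 had a GC-rich cluster in all 3 replicates. Over all genes with an intron cluster, 39.8% had a GC-rich cluster in any replicate, and 845 of 10392 had one in all 3. Of the list's 401 intron clusters 10 (2.49%) were GC-rich, beside 4.88% of all intron clusters. LMNA, which encodes lamins A and C, had 2 GC-rich clusters in replicate 1 and 2 in replicate 2. MAVS, an adaptor of RNA sensing, had 2, in replicate 3. LMNB1, TBK1, ADAR and RELA had 1 each, in a single replicate. CGAS had 1, 2 and 0 intron clusters, 0 of them GC-rich, and STING1 had 0 intron clusters in every replicate.

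MATR3 itself had 21, 23 and 29 intron clusters, and 0 of these 73 were GC-rich, beside 4.88% of all intron clusters. That share went from 1.31% to 22.7% with the G + C of gene bodies. Counting error alone, as 3 counts of 73, allows a share of up to 4.11%. In gene bodies under 40% and from 40% to 45% G + C the GC-rich share was 1.31% and 2.41%, below that limit. In richer gene bodies it was above the limit, and the G + C of the MATR3 gene body is not given here. The limit treats clusters of the same gene in 3 replicates as independent, which they are not, so the 0 is a description.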

How the data were processed

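MATR3 PAR-CLIP clusters of 3 biological replicates were analysed. The authors deposited 1 table per replicate, called separately; per the file headers its read, distinct-read and conversion values are raw counts, and its T-to-C and end-G values are a fraction. The build is hg38, per the submitters' processing notes. All cluster sequences equalled hg38 at the deposited coordinates. The aligner, cluster caller and annotation are not given in the sources used here.

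Positions came from GENCODE release 44. Of the gene names in the tables, 9833 matched by symbol, 475 by an older symbol (RefSeq table) and 84 not at all. Classes were compared within each replicate, and the 3 differences were tested by an exact sign-flip test, two-sided. Clusters are not replicates. Reads have no molecular identifiers. Sequence words were counted on the RNA strand. Python 3.11.15, pandas 2.3.3 and numpy 2.4.6 were used, and the scripts were tested on simulated data.

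Members, lists and tests were chosen with earlier results of these data known. Named genes are the 20 with the largest geometric mean number of members, the 10 places of all 3 replicates with the largest geometric mean of reads, MATR3 and the pathway list; named words are the 10 most frequent, the 10 with the largest ratio to flanks, and fixed ones. The comparison with neighbouring windows, exon overlap, gene-body bins, runs of C and T, cluster ends and 15-letter words were added after the data were seen. Alternatives changed the limits on G + C, C + T, length, reads, distinct reads, conversion locations and T, the comparison class, distances, and the replicates kept.

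The sequences at 3 of the 10 named places are not reported here.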

Additional observations from a re-analysis of the deposited data

How the results depend on the processing

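Over 20 results, 253 values were recomputed; 219 kept their sign (differences) or stayed within 1.5 times (counts), though several of these changed much in size, as given beside the results; 18 turned their sign and 16 moved. Distinct reads per cluster turned to -0.175 against clusters of 40% to 65% G + C and to -0.0271 without clusters within 1000 nt of a transcription start, and the excess found in another replicate to -1.43 and -0.101. Reads per distinct read, -0.00509 as reported, turned to 0.0360 with at least 10 reads, 0.0376 with 3 or more conversion locations, 0.0651 when clusters needed 3 distinct reads, 0.00927 at 60% G + C, 0.00803 with no limit on C + T, 0.000839 against AT-rich clusters in the same C + T band, 0.0116 against 40% to 65% G + C, 0.0101 without exon overlaps and 0.0809 away from starts; leaving out a replicate gave -0.0452 to 0.0166. Reads per cluster moved from 0 to 0.667 with at least 10 reads or 25 to 45 nt, 1.0 with at least 3 conversion locations or distinct reads, 0.333 at 60% G + C, -0.333 against 40% to 65%, 1.5 at 5 to 10 T and 0.867 as a mean. The difference in T-to-C reads moved to 0 as a median over clusters. The difference from neighbouring windows turned to -0.167 at 500 nt and -0.159 at 1000 nt, and lay between -0.155 and 0.281 when a replicate was left out. The cause was not tested in any of these.

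Members per replicate were 10915 at 60% and 1650 at 70% G + C. Genes with a member in all replicates, 845 as reported, were 1980, 247 and, with at least 10 reads, 353; with 2 replicates kept they were 1090 (without replicate 2) to 1276 (without replicate 3), since fewer replicates need to hold one. Of the 10 leading words 6 were shared with flanks 500 nt away.

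The replicates form a single group, so no samples could be paired with each other. The class differences were taken within replicates, which pairs the classes. The share in repeats was not run, because the reference used here marks no repeats (0 lower-case bases). Without a control library the level of background clusters is not known, sites under 4 reads were not seen, and 3 replicates allow no p under 0.25.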

Other observations

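The last bases of the clusters are set beside the bases of the whole cluster. The class rule chose by base composition, so a difference between the classes at the end is a description. The last base was C in 53.6%, 56.7% and 56.2% of GC-rich clusters and in 29.3%, 29.4% and 30.4% of AT-rich clusters in replicates 1, 2 and 3. C makes up 35.4% of the bases of GC-rich and 19% of the bases of AT-rich clusters. T ended 5.98% ± 0.314 of GC-rich and 18% ± 0.429 of AT-rich clusters (SD, n = 3), where T makes up 18.6% and 40.1% of bases. G ended 20.6% ± 0.874 of GC-rich and 11.5% ± 0.441 of AT-rich clusters, and makes up 34.3% and 14.8% of bases. A ended 17.9% ± 0.877 and 40.8% ± 0.394, and makes up 11.8% and 26.2% of bases. C and A were thus more frequent, and T and G less frequent, at the end than over the whole cluster in both classes. The base just before a cluster was G in 13.2% ± 0.127 and 7.57% ± 0.0566. The deposited fraction of reads that its column name ties to ending in G averaged 23.1% ± 0.345 and 11.8% ± 0.333. Enzymes that trim RNA and ligate adapters also act at ends, and their part was not tested.

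A small set of members shared long identical words. Those named here were taken as the most frequent among members of different genes. A higher share in members than in all intron clusters follows in part from that choice. The 15-letter word cccaggctggagtgc was in 63 members of 59 genes, 0.458% ± 0.0470 of members against 0.154% ± 0.0384 of all intron clusters. The word ggagtgcagtggcgc was in 25 members and ctctgtcgcccaggc in 16. Together they were in 84 members of 78 genes, 0.611% ± 0.0885 of members against 0.189% ± 0.0460 of all intron clusters. These words belong to the well-known sequence of Alu elements read on the opposite strand. Reads from different copies of a repeat can be hard to place, and no repeat annotation was used here.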
